A study of Mus musculus with 4 samples.

Results

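Blood vessels and connective tissue cells carry microRNAs (miRNAs) that neurons hardly make, so these miRNAs read the vascular and mesenchymal part of a dissected retina. 9 mature arms of this kind were chosen by name from a table of 1326 mouse miRNAs: mmu-miR-126a-3p and mmu-miR-126a-5p of endothelial cells, mmu-miR-143-3p, mmu-miR-145a-5p and mmu-miR-145a-3p of mural cells, and mmu-miR-199a-5p, mmu-miR-199a-3p, mmu-miR-214-3p and mmu-miR-214-5p of mesenchymal cells (mmu, for mouse, is left out below). All 9 were listed, and 5 of them had enough counts to test. The small RNA libraries came from mouse retina at E18.5, late in gestation, 2 from Ptf1a-/- and 2 from Ptf1a+/- embryos. Both genotypes carry at least 1 mutant Ptf1a allele, and no wild-type library belongs to the comparison. Ptf1a encodes a transcription factor that retinal progenitors need to form amacrine and horizontal cells. The labels give neither how the allele was made nor whether a library held 1 embryo or several, and p-values therefore reflect how far these libraries varied, which could be technical variation only.

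miR-126 lies in the endothelial gene Egfl7 and is known to support growth-factor signalling in vessel walls. miR-143 and miR-145 are made from 1 shared primary transcript and are known from smooth muscle cells and pericytes, the mural cells that wrap vessels. miR-214 is made from the noncoding transcript Dnm3os, as is miR-199a from 1 of its genes. Both are known from mesenchyme, such as the tissue that forms skeleton and fibroblasts. Around birth the mouse retina is still fed largely by hyaloid vessels of the vitreous, and its own vessels are starting to grow in from the optic nerve head, so a dissected retina holds few vascular cells. From each hairpin precursor the cell cuts a 5p and a 3p arm, and usually keeps 1 of them in larger amounts.

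RefSeq (GRCm38.p6) held a mature sequence for 5 of the 9 arms. They are shown because arms differ in their seed (bases 2 to 8, in capitals), the stretch that pairs with target mRNAs. The 5 seeds all differ.
miR-126a-3p: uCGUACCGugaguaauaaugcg
miR-199a-5p: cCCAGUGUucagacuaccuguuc
miR-199a-3p: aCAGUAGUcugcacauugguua
miR-214-3p: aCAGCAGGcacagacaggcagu
miR-214-5p: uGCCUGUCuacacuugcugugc

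miR-199a comes from 2 hairpins, whose RefSeq sequences (GRCm38.p6) follow with both arms in capitals. They are shown because each makes both arms, and the 2 arms did not change together. Identical arms in both hairpins mean that reads cannot be assigned to either.
Mir199a-1: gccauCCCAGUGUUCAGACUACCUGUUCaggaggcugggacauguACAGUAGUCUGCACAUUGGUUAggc
Mir199a-2: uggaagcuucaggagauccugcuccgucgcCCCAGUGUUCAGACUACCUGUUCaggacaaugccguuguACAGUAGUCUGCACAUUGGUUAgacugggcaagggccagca

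Positions are those of GENCODE M21 (GRCm38). Mir199a-1 lies on chromosome 9, from 21496495 to 21496564 on the minus strand, opposite an intron of Dnm2. Mir199a-2 lies on chromosome 1, from 162217814 to 162217923 on the plus strand, in an exon of Dnm3os and opposite an intron of Dnm3. Mir214 lies 5444 bases further along in the same Dnm3os transcript unit (162223368 to 162223477). Mir126a lies on chromosome 2, from 26591357 to 26591429 on the plus strand, inside Egfl7, where it overlaps an annotated exon. Mir143 (61649196 to 61649258) and Mir145a (61647825 to 61647894) lie 1301 bases apart on the minus strand of chromosome 18, inside no other annotated gene. Another hairpin, Mir199b on chromosome 2 (32318460 to 32318569, opposite an intron of Dnm1), gives a 3p arm identical to that of miR-199a.

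The total of listed counts was 3647145 to 4385834. TMM scaling, which sets libraries level on the bulk of miRNAs, gave Ptf1a-/- replicate 2 a factor of 0.829, against 1.06 to 1.07 in the other libraries. Levels are given as counts per 1e+06 of the TMM-scaled total (CPM). An arm with a count of 0 could still have a level of 0.638 to 0.924 CPM, depending on the library (3 counts, counting error only). The Ptf1a-/- libraries differed from each other more than the Ptf1a+/- libraries did, with a median SD of 16.1% of the mean against 5.08%.

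The 9 arms together made up 0.0418 and 0.0522% of what the Ptf1a-/- libraries held in listed counts, against 0.0692 and 0.0717% in the Ptf1a+/- libraries. Their summed level was 395 and 630.0 TMM-scaled CPM in Ptf1a-/-, against 652 and 669 in Ptf1a+/-. The sum is mostly miR-126a-3p. Without it, the other 8 arms summed to 70.5 and 84.7 TMM-scaled CPM in Ptf1a-/-, against 106 and 105 in Ptf1a+/-. On both sums each Ptf1a-/- library lay below each Ptf1a+/- library, for the 9 arms by little in replicate 2. In RNA from whole tissue, fewer cells of a type and less RNA per cell cannot be told apart.

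1 of the 5 tested arms, miR-199a-5p, fell in Ptf1a-/-, and no tested arm rose (edgeR quasi-likelihood test, adjusted p under 0.05 over 584 miRNAs). Of all 584 miRNAs, 9.76% passed in either direction, 6.16% were higher and 3.60% lower. A count of 1 among 5 is too small to set against that background. The median log2 fold change of the 5 was -0.35, against 0.00 over all miRNAs tested.

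**Figure D1:**
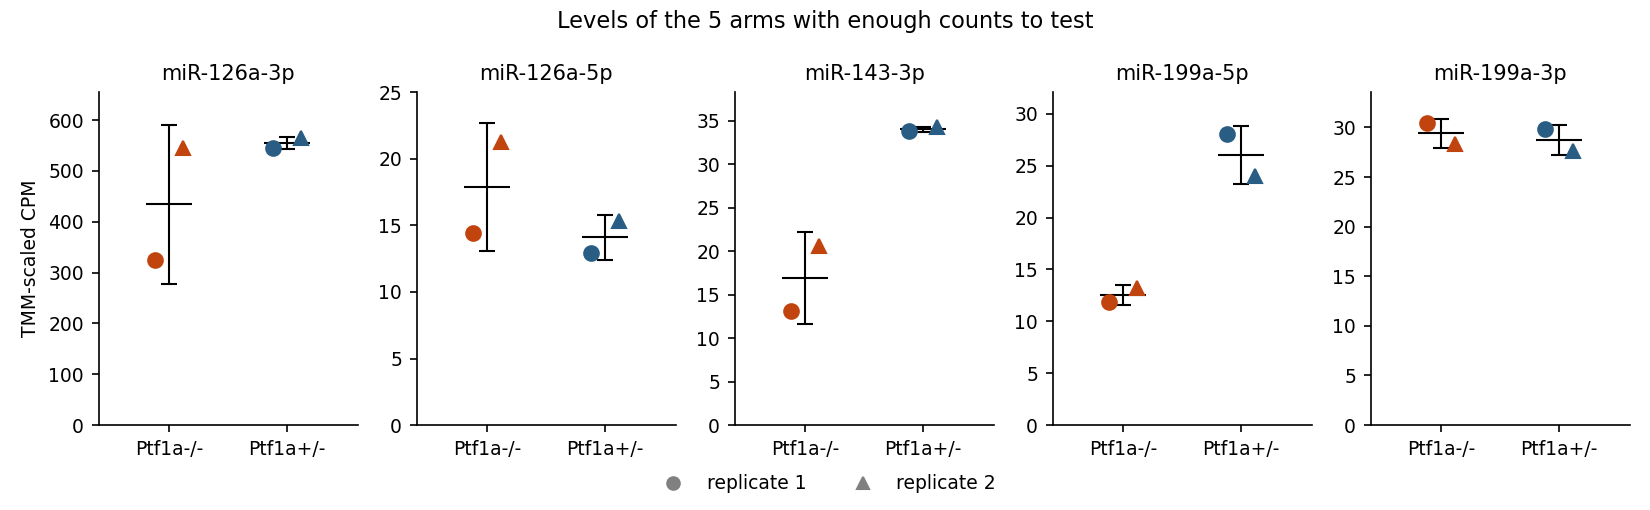
TMM-scaled CPM (y axis, from 0, a scale for each arm) of the 5 tested arms in Ptf1a-/- and Ptf1a+/- libraries; points are libraries, and the horizontal line and bars give mean and SD (n = 2 each). miR-143-3p and miR-199a-5p lie well below the Ptf1a+/- libraries in both Ptf1a-/- libraries, while miR-126a-3p does so only in replicate 1.

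miR-199a-5p stood at 11.9 and 13.2 TMM-scaled CPM in the Ptf1a-/- libraries, against 28.0 and 24.0 in the Ptf1a+/- libraries. Both Ptf1a-/- libraries were at about the same low level, and the genotypes did not overlap. Of all miRNAs, 31.5% were likewise lower in each Ptf1a-/- library than in each Ptf1a+/- library, and 26.7% higher in each. It averaged 12.6 ± 0.966 TMM-scaled CPM in Ptf1a-/- and 26.0 ± 2.82 in Ptf1a+/- (SD, n = 2 each), and the log2 fold change was -1.05 ± 0.22 (SE, 95% interval -1.60 to -0.50, adjusted p = 0.0430, edgeR quasi-likelihood test). The call is close to the threshold. With replicate numbers not taken as pairs, it was lost without Ptf1a+/- replicate 1 (adjusted p = 0.419) or Ptf1a+/- replicate 2 (0.391), with those libraries summed into 1 (0.369), with library size as the only scaling (0.0649), with DESeq2 (0.0807) and with no count filter (0.0671), while the log2 fold change stayed between -1.23 and -0.94 in these 6 settings.

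miR-199a-3p, the other arm of the same hairpins, stood at 30.5 and 28.3 TMM-scaled CPM in Ptf1a-/-, against 29.8 and 27.7 in Ptf1a+/-. The libraries of both genotypes were interleaved. Its log2 fold change was 0.03 ± 0.18 (SE, 95% interval -0.41 to 0.48, adjusted p = 0.943, edgeR quasi-likelihood test), which turned to -0.14 with library size as the only scaling, to -0.30 on the deposited CPM, and to -0.02 and -0.03 without Ptf1a-/- replicate 1 and Ptf1a+/- replicate 2. miR-199b-3p had the same counts in every library, so the table had divided 1 pool of reads equally between both names. That pool held 236 and 184 counts in Ptf1a-/- and 231 and 260 in Ptf1a+/-.

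The 5p arm of miR-199b differs in sequence and was counted apart. It stood at 5.68 and 2.77 TMM-scaled CPM in Ptf1a-/-, against 4.78 and 4.89 in Ptf1a+/- (log2 fold change -0.14 ± 0.40, SE, adjusted p = 0.861, edgeR quasi-likelihood test). Summed, the 5p arms of miR-199a and miR-199b had 68 and 52 counts in Ptf1a-/- and 127 and 136 in Ptf1a+/-, a ratio of levels of 0.549 (95% counting interval 0.439 to 0.684). The pooled 3p arms had a ratio of 1.03 (0.902 to 1.18). The intervals do not overlap, and they cover counting error only.

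A ratio of 2 arms in 1 library does not depend on how libraries are scaled. Counts of miR-199a-3p over miR-199a-5p were 2.57 and 2.14 in Ptf1a-/-, against 1.06 and 1.15 in Ptf1a+/-. With the 3p pool over both 5p arms the ratios were 3.47 and 3.54 in Ptf1a-/-, against 1.82 and 1.91 in Ptf1a+/-. The genotypes stood apart on both ratios, by more than the libraries of a genotype differed. Among 152 hairpins with both arms past the count filter, log2 of the 3p to 5p ratio of miR-199a changed by 1.07 ± 0.26 (SE, adjusted p = 0.0805, limma), a test added after seeing the data. It did not pass there, and 0.658% of hairpins, the hairpin of miR-673 alone, did. It passed without Ptf1a-/- replicate 1 (adjusted p = 0.0226, limma) or replicate 2 (0.0119) and was far from passing without Ptf1a+/- replicate 1 (0.874) or replicate 2 (0.837), the lone library being assumed in each case to vary like the remaining pair. The change of miR-199a was among the 7 largest of the 152 in size, against a median size of 0.31. For 48.7% of hairpins the Ptf1a-/- libraries lay outside the Ptf1a+/- range on 1 side, so that separation alone is common in these libraries.

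**Figure D2:**
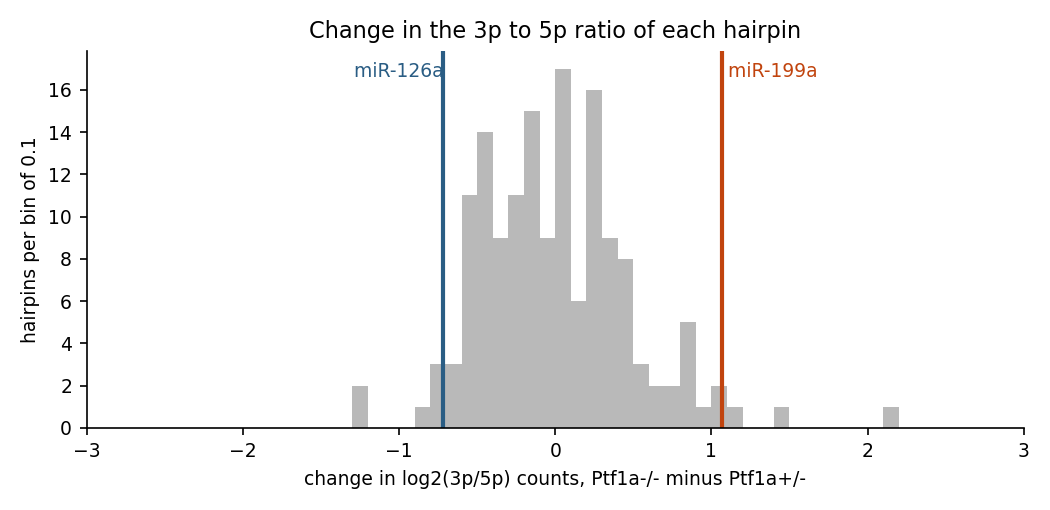
Histogram of the change in log2 of the 3p to 5p count ratio, Ptf1a-/- minus Ptf1a+/- (x axis), for 152 hairpins in bins of 0.1 (y axis, hairpins per bin). The vertical lines mark miR-126a at -0.72 and miR-199a at 1.07, on opposite sides of the bulk of hairpins.

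miR-214 is encoded in the same host transcript as 1 of the miR-199a hairpins, yet it was barely counted. miR-214-3p had 0 and 4 counts in Ptf1a-/-, against 2 and 5 in Ptf1a+/-. miR-214-5p had 1 and 0 counts in Ptf1a-/-, against 2 and 8 in Ptf1a+/-. All 4 libraries together held 11 counts of each arm, against 311 of miR-199a-5p. The ratio of levels was 0.688 for miR-214-3p (95% counting interval 0.148 to 2.71), and 0.120 for miR-214-5p (0.00277 to 0.846), where 8 of the 10 Ptf1a+/- counts came from 1 library. Neither arm entered the test, so no difference between genotypes is drawn from them.

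Some of these few reads were not exact copies of the mature sequences printed above. In the authors' table of most frequent sequences, which writes T for U, the single miR-214-5p read of Ptf1a-/- replicate 1 carried G2A, inside the seed, and C22T (position 1 is the 5′ base of the RefSeq mature sequence). The most frequent miR-214-3p sequence of Ptf1a-/- replicate 2 carried G21A and T22A at its 3′ end. That of Ptf1a+/- replicate 1 was 19 bases long and carried C19T. The arms with more counts had the same exact sequence on top in every library, apart from an extra 3′ base on miR-126a-5p in Ptf1a+/- replicate 1. For miR-199a-3p that sequence was 21 bases long in all 4 libraries, 1 base short of the RefSeq mature form at its 3′ end.

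miR-143-3p, the guide arm of the mural hairpin, had 51 and 67 counts in Ptf1a-/-, against 131 and 161 in Ptf1a+/-. On the TMM scale it stood at 13.2 and 20.6 CPM in Ptf1a-/-, against 33.8 and 34.3 in Ptf1a+/-. Like 31.5% of all miRNAs it was lower in each Ptf1a-/- library than in each Ptf1a+/- library, more so in replicate 1. The Ptf1a+/- libraries nearly coincided. The means were 16.9 ± 5.28 TMM-scaled CPM in Ptf1a-/- and 34.0 ± 0.292 in Ptf1a+/- (SD, n = 2 each), and the log2 fold change was -1.03 ± 0.25 (SE, 95% interval -1.65 to -0.41). The adjusted p of 0.0637 over 584 miRNAs did not pass (edgeR quasi-likelihood test). It passed on the deposited CPM (adjusted p = 0.0380, limma), where all miRNAs shift down by 0.33, with a filter of 50 counts (0.0452), and without Ptf1a-/- replicate 1 (0.00284, log2 fold change -0.72) or replicate 2 (3.31e-08, -1.35). It did not pass without Ptf1a+/- replicate 1 (adjusted p = 0.405, edgeR) or replicate 2 (0.486), or with these libraries summed into 1 (0.383). In the leave-out and summed fits the lone library is assumed to vary like the remaining pair.

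The partner hairpin was close to absent. miR-145a-5p, usually the abundant arm in mural cells, had 0 and 0 counts in Ptf1a-/-, against 0 and 1 in Ptf1a+/-. miR-145a-3p had 1 and 0 counts in Ptf1a-/-, against 2 and 3 in Ptf1a+/-. Over all 4 libraries miR-143-3p had 410 counts, and both miR-145a arms had 1 and 6. Cutting gels, ligating adapters and amplifying do not treat all sequences alike, so the gap between these arms is not a measure of their levels in the tissue. With miR-143-5p at 0 and 1 counts in Ptf1a-/- and 0 and 0 in Ptf1a+/-, the mural reading rests on miR-143-3p alone.

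**Figure D3:**
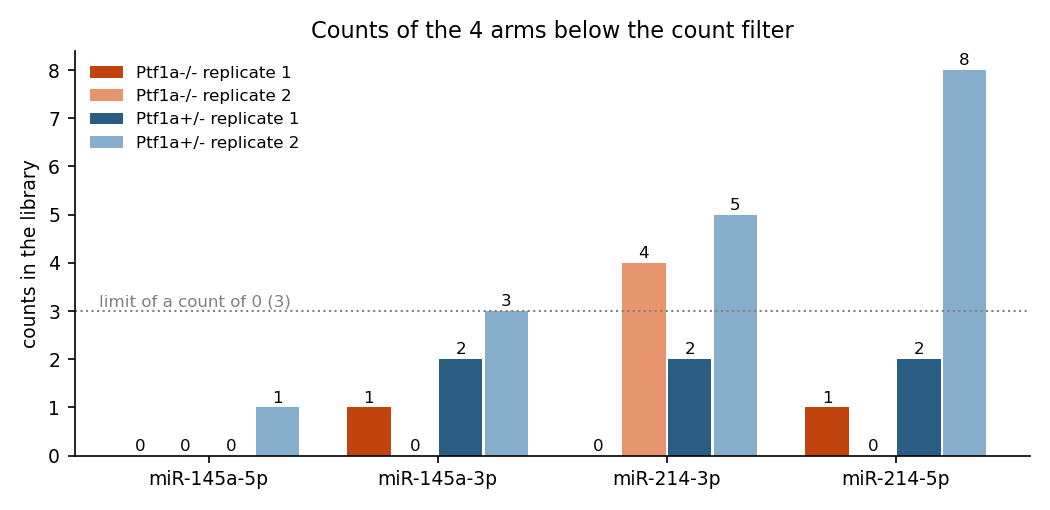
Counts (y axis) of miR-145a-5p, miR-145a-3p, miR-214-3p and miR-214-5p in each of the 4 libraries, Ptf1a-/- bars before Ptf1a+/- bars, with the 3 counts that a count of 0 allows as a dotted line. No bar exceeds 8 counts, and most lie at or under the line.

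miR-126a-3p, the guide arm of the endothelial hairpin, was by far the most counted of the 9. Ptf1a-/- libraries held 1256 and 1771 counts of it, against 2114 and 2651 in Ptf1a+/-. By count it ranked 124 and 105 among all miRNAs in the Ptf1a-/- libraries, against 106 and 107 in the Ptf1a+/- libraries. It stood at 324 and 545 TMM-scaled CPM in Ptf1a-/-, against 546 and 564 in Ptf1a+/-. Replicate 1 of Ptf1a-/- was low, while replicate 2 was level with the Ptf1a+/- libraries. The means were 435 ± 156 TMM-scaled CPM in Ptf1a-/- and 555 ± 12.7 in Ptf1a+/- (SD, n = 2 each), and the log2 fold change was -0.35 ± 0.24 (SE, 95% interval -0.94 to 0.23, adjusted p = 0.416, edgeR quasi-likelihood test). Without Ptf1a-/- replicate 1 the log2 fold change was -0.03 (adjusted p = 0.639), and without replicate 2 it was -0.76 and passed (2.17e-50), again with the lone library assumed to vary like the Ptf1a+/- pair.

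The reading of replicate 2 depends on its TMM factor. As a share of listed counts, miR-126a-3p stood at 343 and 452 CPM in Ptf1a-/-, against 580 and 604 in Ptf1a+/-, so that both Ptf1a-/- libraries were lower. On the deposited CPM, whose total also holds reads outside the table, it stood at 265 and 326 in Ptf1a-/-, against 481 and 506 in Ptf1a+/-. The log2 fold change was -0.57 by library size and -0.74 on the deposited CPM, and neither passed (adjusted p = 0.125 with edgeR and 0.0749 with limma). All miRNAs shifted by medians of -0.18 and -0.33 under these scalings, and relative to these the arm stood at -0.40 and -0.41.

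**Figure D4:**
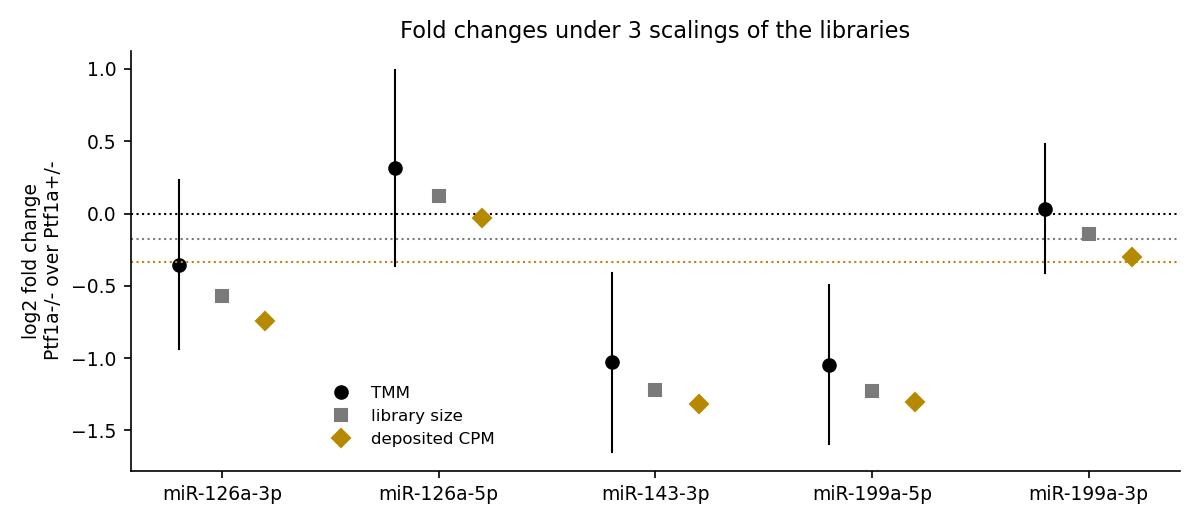
Log2 fold change of Ptf1a-/- over Ptf1a+/- (y axis) of the 5 tested arms under TMM (circles, with the 95% interval of the edgeR fit), library size (squares) and deposited CPM (diamonds); dotted lines mark the median of all miRNAs under each. miR-143-3p and miR-199a-5p lie below the medians by 0.97 to 1.05 under all 3 scalings, while miR-199a-3p stays within 0.04 of them.

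miR-126a-5p, the rarer arm of that hairpin, had 56 and 69 counts in Ptf1a-/-, against 50 and 72 in Ptf1a+/-. It stood at 14.5 and 21.2 TMM-scaled CPM in Ptf1a-/-, against 12.9 and 15.3 in Ptf1a+/-, and the genotypes overlapped. Its log2 fold change was 0.31 ± 0.28 (SE, 95% interval -0.37 to 0.99, adjusted p = 0.530, edgeR quasi-likelihood test) and turned to -0.03 on the deposited CPM. It was 0.58 without Ptf1a-/- replicate 1 and 0.042 without replicate 2, and passed in neither fit (adjusted p = 0.0625 and 0.917, edgeR). Counts of miR-126a-3p over miR-126a-5p were 22.4 and 25.7 in Ptf1a-/-, against 42.3 and 36.8 in Ptf1a+/-, lower in both Ptf1a-/- libraries. Log2 of this ratio changed by -0.72 ± 0.26 (SE, adjusted p = 0.238 over 152 hairpins, limma). It passed without Ptf1a-/- replicate 2 (adjusted p = 0.0356, limma), but not without Ptf1a-/- replicate 1 (0.0723), Ptf1a+/- replicate 1 (0.874) or Ptf1a+/- replicate 2 (0.837). In size, 19 of the 152 hairpins changed at least as much. For 48.7% of the 152 the Ptf1a-/- libraries likewise lay outside the Ptf1a+/- range on 1 side.

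Set against the endothelial arm in the same library, miR-143-3p amounted to 4.06 and 3.78% of the miR-126a-3p counts in Ptf1a-/-, against 6.20 and 6.07% in Ptf1a+/-. The ratio was thus lower in both Ptf1a-/- libraries by more than the libraries of a genotype differed, and summed counts gave 3.90% (95% counting interval 3.22 to 4.69%) in Ptf1a-/- and 6.13% (5.43 to 6.90%) in Ptf1a+/-. miR-199a-5p amounted to 3.66 and 2.43% of miR-126a-3p in Ptf1a-/-, against 5.13 and 4.26% in Ptf1a+/-. For miR-199a-3p the shares were 9.39 and 5.19% in Ptf1a-/- and 5.46 and 4.90% in Ptf1a+/-, where only replicate 1 of Ptf1a-/- stood apart. miR-199a-5p over miR-143-3p was 0.902 and 0.642 in Ptf1a-/-, against 0.828 and 0.702 in Ptf1a+/-, with overlapping genotypes. No model was fitted to these ratios, and with 2 libraries a genotype an exact permutation test cannot give a two-sided p below 0.33.

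In Ptf1a-/- the order of mean levels was miR-126a-3p, miR-199a-3p (29.4 TMM-scaled CPM), miR-126a-5p (17.9), miR-143-3p (16.9) and miR-199a-5p (12.6), where the libraries of the last 3 overlapped with those of their neighbours among these 3. In Ptf1a+/- it was miR-126a-3p, miR-143-3p (34.0), miR-199a-3p (28.7), miR-199a-5p (26.0) and miR-126a-5p (14.1), and the libraries of both miR-199a arms overlapped. Given its equal share of the pool with miR-199b-3p, miR-199a-3p lay above miR-143-3p in both Ptf1a-/- libraries and below it in both Ptf1a+/- libraries. The values did not overlap in either genotype. That order rests on the split, since the undivided pool stood above miR-143-3p in every library. The pool was at 60.9 and 56.7 TMM-scaled CPM in Ptf1a-/-, against 59.7 and 55.3 in Ptf1a+/-. miR-126a-5p likewise lay above miR-199a-5p in both Ptf1a-/- libraries and below it in both Ptf1a+/- libraries, without overlap. Mature arms are of nearly equal length, so CPM compares them per molecule, within the limits of ligation bias and of reads shared between names.

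Of 16 other miRNAs linked to vessels and mesenchyme 13 were in the table and 11 were tested, and none passed in either direction, with a median log2 fold change of 0.02. Of all 584 miRNAs 9.76% passed, and a list of 11 is too short to set against that share. Its member miR-199b-3p shares its reads with miR-199a-3p and is no separate reading. The most abundant, miR-21a-5p of fibroblasts and many other cells, averaged 7897 ± 1077 TMM-scaled CPM in Ptf1a-/- and 7275 ± 42.8 in Ptf1a+/- (SD, n = 2 each, log2 fold change 0.12 ± 0.14, SE, adjusted p = 0.652, edgeR quasi-likelihood test). The smallest p was that of miR-152-3p, at 1635 ± 67.9 TMM-scaled CPM in Ptf1a-/- and 1324 ± 0.173 in Ptf1a+/- (0.30 ± 0.10, adjusted p = 0.134). Many of these miRNAs are also made by neural cells, so they read vessels less directly than miR-126a or miR-143.

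The libraries held the miRNAs that define retina. 6 miRNAs of retinal neurons and photoreceptors, all tested and none called, took 40.2 and 44.3% of listed counts in Ptf1a-/-, against 38.5 and 38.5% in Ptf1a+/-. The brain and retina miRNA miR-9-5p was the most abundant of them, at 251707 ± 46813 TMM-scaled CPM in Ptf1a-/- and 193655 ± 99.1 in Ptf1a+/-. miR-181a-5p had the smallest p (log2 fold change -0.45 ± 0.12, SE, adjusted p = 0.0843, edgeR quasi-likelihood test). The members of the list were split. In both Ptf1a-/- libraries 3 of the 6 were lower than in either Ptf1a+/- library, and 2 were higher. Of all miRNAs, 31.5% were likewise lower and 26.7% higher, and 9.76% passed, so 6 are too few to set against these shares. It was the summed share, and not every member, that was higher in Ptf1a-/-, alongside the lower share of the vascular arms. The part of that sum in the values of the vascular arms was not tested.

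The summed level of white blood cell and microglia markers, like that of miR-143-3p and miR-199a-5p, was lower in both Ptf1a-/- libraries, though no single marker passed. It was 54.0 and 63.1 TMM-scaled CPM in Ptf1a-/-, against 87.3 and 84.7 in Ptf1a+/-. Of 6 markers 3 were tested, too few to set against the 9.76% of all miRNAs that passed. Each of the 3 was lower in either Ptf1a-/- library than in any Ptf1a+/- library, as were 31.5% of all miRNAs. The most abundant, the inflammation-linked miR-146a-5p, averaged 46.4 ± 2.79 TMM-scaled CPM in Ptf1a-/- and 64.1 ± 2.50 in Ptf1a+/- (log2 fold change -0.47 ± 0.15, SE, adjusted p = 0.121, edgeR quasi-likelihood test). The myeloid marker miR-223-3p had 0 and 1 counts in Ptf1a-/- and 0 and 0 in Ptf1a+/-, and the lymphoid marker miR-150-5p had 0 and 1 counts in Ptf1a-/- and 0 and 2 in Ptf1a+/-. The part of these cells in the values of the vascular arms was not tested.

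Red blood cell markers gave little. miR-451a had 1 and 1 counts in Ptf1a-/-, against 0 and 1 in Ptf1a+/-, and miR-144-3p had 0 and 0 in Ptf1a-/-, against 2 and 2 in Ptf1a+/-. miR-486a-5p, the only miRNA of the red cell list that was tested, averaged 79.6 ± 22.8 TMM-scaled CPM in Ptf1a-/- and 71.3 ± 2.17 in Ptf1a+/- (log2 fold change 0.15 ± 0.22, SE, adjusted p = 0.737, edgeR quasi-likelihood test). Striated muscle markers summed to 65.3 and 70.5 TMM-scaled CPM in Ptf1a-/-, against 49.1 and 51.3 in Ptf1a+/-, with none of 3 tested passing and miR-1a-3p leading (0.55 ± 0.24, adjusted p = 0.219). Pigment epithelium markers summed to 3204 and 3566 in Ptf1a-/-, against 3690 and 3730 in Ptf1a+/-, and 1 of 3, miR-204-3p, fell (-0.54 ± 0.12, adjusted p = 0.0436), the abundant miR-204-5p standing at -0.09 ± 0.11 (0.686). Of all 584 miRNAs 9.76% passed, 3.60% lower, so lists of 3 tested miRNAs are too short to set against that background. Lens and surface epithelium markers summed to 229.7 and 302 TMM-scaled CPM in Ptf1a-/-, against 308 and 295 in Ptf1a+/-. 1 of 3 tested, miR-200b-3p, fell (-3.47 ± 0.49, adjusted p = 0.0124, edgeR quasi-likelihood test). It stood at 0.258 and 0.924 TMM-scaled CPM in Ptf1a-/-, against 6.46 and 6.60 in Ptf1a+/-. The Ptf1a-/- values do not exceed what a count of 0 allows, and it met the count filter through Ptf1a+/- alone. The size of its fall is therefore uncertain. The abundant miR-184-3p stood at -0.44 ± 0.28 (adjusted p = 0.388). The third, miR-203-3p, named after its values were seen, stood higher in both Ptf1a-/- libraries, at 124 and 111 TMM-scaled CPM in Ptf1a-/- against 100.2 and 90.6 in Ptf1a+/- (0.30 ± 0.14, adjusted p = 0.244). miR-200c-3p, also named after its values were seen and too rare to test, had 7 and 4 counts in Ptf1a-/- and 7 and 7 in Ptf1a+/-. Whether such tissue carried the vascular or mesenchymal arms into the libraries was not tested.

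**Figure D5:**
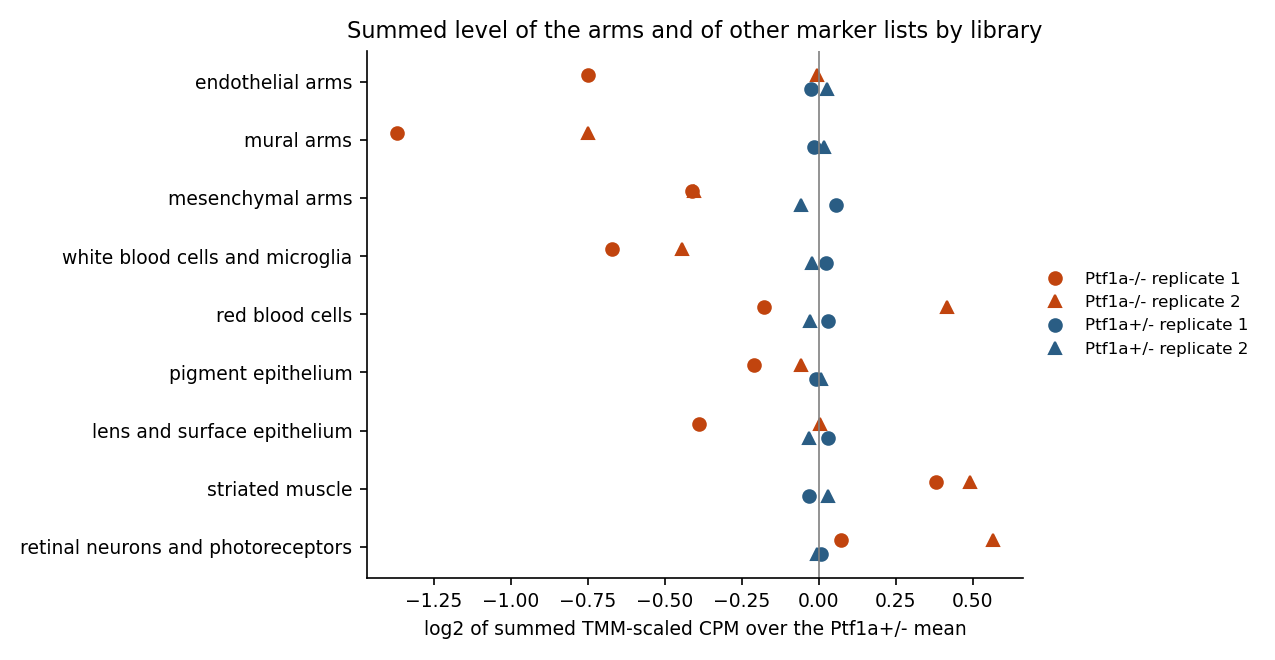
Log2 of the summed TMM-scaled CPM of each marker set over its Ptf1a+/- mean (x axis), by library, for the endothelial, mural and mesenchymal arms and 6 other marker lists (y axis), Ptf1a-/- points above Ptf1a+/- points. Mural arms, mesenchymal arms (mainly through miR-199a-5p, with miR-199a-3p unchanged), white blood cell markers and, by less, pigment epithelium markers are low in both Ptf1a-/- libraries. Striated muscle and retinal neuron markers are higher in both. Endothelial arms are low in replicate 1 of Ptf1a-/-, and Ptf1a+/- libraries stay near 0.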

How the data were processed

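Total retina RNA was cut to 18 to 30 nt on a gel and made into libraries using a small RNA kit of New England Biolabs, per the labels' protocols. The submitters' processing notes name bcl2fastq 2.20.0.422. Aligner, counter and build: not given in the sources used here. One deposited table, of raw values per mature miRNA, holds estimated counts, with reads shared by several names divided among them. Between 5.73 and 7.84% of a library's values had a fractional part. All values were rounded for the count tests, as the plan foresaw for estimated counts. The deposited CPM divide the listed counts by a larger total per library. The part of that total outside the table was 22.7 and 27.9% in Ptf1a-/-, against 17.1 and 16.3% in Ptf1a+/-. Deposited CPM are therefore lowered more in Ptf1a-/-. Another deposited table gives, as text, the most frequent sequence per miRNA, written against miRBase 22 per the file headers.

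Genotypes were compared with the quasi-likelihood F test of edgeR (4.0.16, in R 4.3.3) under TMM scaling, genotype being the only term. It covered the 584 of 1326 miRNAs that reached 10 counts in 2 or more libraries. p-values were adjusted by Benjamini-Hochberg over all of them and called under 0.05. The intervals of ratios are exact (Clopper-Pearson, 95%) and cover counting error only, since no molecular identifiers are described. Levels use unrounded counts over the TMM-scaled library size. Arm ratios were tested with limma 3.58.1 after adding 0.5 to both counts. Alternatives were library size, DESeq2 1.42.0 as size factors and as a test, other filters, the deposited CPM (limma with a trend, 1 or 0.25 added), a replicate block, summed libraries and leaving out each library. The tests were checked on simulated data with the same spread in both genotypes. These libraries did not have that, so false calls under unequal spread were not checked.

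The 9 arms, the lists and the alternatives were chosen with earlier results of these data known. In other lists the most abundant member, the one with the smallest p and every called member are named, with members under the filter given by their counts where they define a cell type (chosen after their values were seen). Of miRNAs with a pattern like that of miR-143-3p or miR-126a-3p, the 3 closest with at least 100 counts in all are named.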

Additional observations from a re-analysis of the deposited data

How the results depend on the processing

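miR-199a-5p was called with TMM, DESeq2 size factors, a filter of 50 counts, the deposited CPM with either pseudocount, without either Ptf1a-/- library and with these summed. Its log2 fold change without a call was -1.23 by library size, -1.03 with the DESeq2 test, -1.05 with no count filter, -1.04 with the Ptf1a+/- libraries summed and -1.05 with a replicate block (adjusted p = 0.104, edgeR, with 0.1155 for miR-143-3p). miR-143-3p was called at -1.05 with the filter of 50 counts, at -1.32 and -1.37 on the deposited CPM, and at -1.03 with the Ptf1a-/- libraries summed, where miR-126a-3p was called too (-0.38). miR-126a-5p turned to -0.028 and -0.029 on the deposited CPM (pseudocounts 1 and 0.25), and miR-199a-3p to -0.14 by library size and -0.30 and -0.31 on the deposited CPM.

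Of the 5 tested arms, 1 was called with TMM, 0 by library size, with the DESeq2 test, with no filter, with the replicate block and with the Ptf1a+/- libraries summed, 2 with the filter of 50 counts, on the deposited CPM and at an adjusted p under 0.10, and 3 with the Ptf1a-/- libraries summed. Over all miRNAs, 36 were higher and 21 lower with TMM. These were 4 and 12 by library size, 12 and 9 with no filter, 5 and 7 with the block, 0 and 1 with the Ptf1a+/- libraries summed and 147 and 138 with the Ptf1a-/- libraries summed, while the deposited CPM gave 1 and 27 (1 and 26 with pseudocount 0.25). Summed libraries lose a degree of freedom and the spread of the pair summed.

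Leaving out 1 library at a time gave 0 to 142 higher, 1 to 132 lower and 0 to 3 of the arms called. Log2 fold changes then ranged from -0.76 to -0.027 for miR-126a-3p, 0.042 to 0.58 for miR-126a-5p, -1.35 to -0.72 for miR-143-3p, -1.15 to -0.94 for miR-199a-5p and -0.026 to 0.11 for miR-199a-3p, which was -0.019 without Ptf1a-/- replicate 1. The change in log2 3p over 5p ranged from -0.82 to -0.62 for miR-126a and from 0.94 to 1.20 for miR-199a, which passed with the replicate block (1.07, adjusted p = 0.0189, limma), while miR-126a did not (0.191). The labels do not say that replicate numbers pair libraries, and same-numbered deviations correlated at 0.050. The summed level of the 9 arms kept its direction under every scaling and leave-out run, with log2 ratios from -0.75 to -0.07. Depth left 4 of the 9 arms untested.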

Other observations

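Among 442 other tested miRNAs with at least 100 counts in all, likeness to an arm was taken as the root mean square difference of log2 levels (TMM-scaled CPM plus 1), each centred on its mean over the 4 libraries. Closest to miR-143-3p were miR-181b-1-3p (0.0995), miR-3085-3p (0.119) and miR-155-5p (0.122), against a median of 0.576 over all 442. miR-181b-1-3p stood at 14.7 and 18.8 TMM-scaled CPM in Ptf1a-/-, against 34.6 and 34.0 in Ptf1a+/-. miR-155-5p, which is on the white blood cell list, stood at 5.68 and 11.1 in Ptf1a-/-, against 14.5 and 16.6 in Ptf1a+/-. Closest to miR-126a-3p were miR-674-3p (0.0458), miR-184-3p of the lens list (0.0717) and miR-210-5p (0.0765), against a median of 0.393. Like miR-126a-3p they were low in Ptf1a-/- replicate 1 and nearly level with Ptf1a+/- in replicate 2, as with miR-674-3p at 582 and 897 TMM-scaled CPM in Ptf1a-/-, against 953 and 962 in Ptf1a+/-. Over 4 libraries a pattern of this kind is a description, and what these miRNAs share was not tested.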
